A study of Mus musculus with 48 samples.

Results

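The secreted and cell-surface proteins of the 4 classical axon guidance systems were followed in the striatum of Q140 mice. These mice are a knock-in model of Huntington's disease, here with and without a labelled loss of the mismatch repair gene Msh3. The members were all genes named as a semaphorin, plexin, neuropilin, ephrin, Eph receptor, Slit, Robo, netrin, Unc5 receptor or Dcc whose mean level over the 48 libraries was at least 0.5 CPM (counts scaled to library size). Of 68 such names among the 48795 genes of the count table, 65 were members, and all 65 passed the filter on low counts, so that they are 65 of the 19714 genes tested. The rule did not use any difference between genotypes. The 3 names below the minimum were Epha1 at 0.239 CPM, Efna4 at 0.118 CPM and Ntn5 at 0.0714 CPM, and the 3 lowest members were Epha2 at 1.52 CPM, Sema3b at 1.56 CPM and Efna1 at 1.82 CPM. No member had fewer than 27 counts in any library.

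RNA was sequenced from 8 mice of each of 6 genotypes, 4 females and 4 males each, all on a C57BL/6 background. WT mice carried neither change. Q140 mice were heterozygous, with the expanded CAG repeat in 1 Htt allele and the other allele left as it was. The groups labelled Msh3+/- and Msh3-/- lacked 1 or both Msh3 alleles by their labels and had no Q140 allele, and the groups labelled Q140 x Msh3+/- and Q140 x Msh3-/- combined them with the heterozygous Q140 allele. Each sample was bulk tissue from 1 mouse. The age was 12 months by the sample characteristics and 6 months by the extraction text, so the age at dissection is uncertain.

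Axon guidance proteins steer growing axons in the developing brain and remain expressed in the adult, where several act at synapses and in blood vessels. Class 3 semaphorins are secreted and signal through plexins, most of them with a neuropilin as co-receptor, while the other semaphorins are anchored in the membrane. Ephrins are membrane-bound ligands of the Eph receptor tyrosine kinases and can also signal back into the cell that carries them. Slits are secreted ligands of Robo receptors, and netrins attract axons through Dcc and repel them through Unc5 receptors. In the striatum these systems are known for guiding the axons of spiny projection neurons and the fibres that enter from cortex, thalamus and midbrain.

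Library totals ran from 38916064 to 60899661 counts. Markers of spiny projection neurons, the main cells of the striatum, summed to between 12007 and 13469 CPM in WT mice, and no marker on any cell type list was at 0 in all libraries. Msh3 counts did not fall with the labelled loss of alleles: the mean was 29.0 ± 1.61 CPM (SD, n = 8) in WT, 73.9 ± 1.56 CPM (SD, n = 8) in Msh3+/- and 122 ± 3.10 CPM (SD, n = 8) in Msh3-/- mice. The 3 ranges did not overlap, so the libraries sorted by label, but the counts rose where a loss would lower them. What remains of the gene in each allele was not analysed here. Genotypes are therefore named as labelled, and each comparison of Msh3 genotypes depends on those labels. Htt was at 227 ± 7.95 CPM (SD, n = 8) in WT and 213 ± 11 CPM (SD, n = 8) in Q140 mice. On the first residual component, which held 9.29% of the variance left after genotype and sex, 4 libraries stood apart at 25.9 to 44.9, against -19.3 to 12.2 for the other 44. They were Q140 x Msh3+/- F1, Msh3-/- F1, Msh3-/- M1 and Q140 x Msh3-/- M1 (F for female, M for male), and without them the count of members past the threshold in Q140 minus WT was 34, the same as with them. The column names of 4 other libraries, 2 WT and 2 Q140, do not begin with the stem of the remaining 44, for a reason the labels do not give. The 2 WT libraries, both female, each have a stem of their own, and the 2 Q140 libraries, a female and a male, share another. No such stem occurs in both genotypes, so stem and genotype cannot be told apart in these 4. For short they are called the libraries of the other name stem, and values without them are given beside the calls they end.

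In WT striatum the levels spanned a wide range when compared per gene length, in FPKM (fragment counts scaled by gene length and library size). Efnb3, a transmembrane ephrin, was highest at 52.6 FPKM, followed by Sema7a, a semaphorin held by a lipid anchor, at 35.0 FPKM, and the ephrin receptor Epha4 at 34.7 FPKM. Plxnd1, the receptor of Sema3e, stood at 30.0 FPKM, and the transmembrane semaphorin Sema6b at 28.9 FPKM. The lowest were Slit2 at 0.420 FPKM, Epha2 at 0.327 FPKM and Sema3b at 0.315 FPKM. The other members lay between these ends. The leading gene was Sema3e among secreted semaphorins at 7.36 FPKM, Slit3 among Slits and Robos at 14.2 FPKM, and the netrin receptor Unc5a in the netrin group at 21.1 FPKM. By class, the median was 6.38 FPKM for plexins and neuropilins, 4.38 FPKM for Slits and Robos, 4.28 FPKM for membrane semaphorins, 3.22 FPKM for the netrin group, 2.61 FPKM for ephrins, 2.48 FPKM for Eph receptors and 2.34 FPKM for secreted semaphorins. When the 65 members were put in order of their mean, 5 of 64 neighbouring pairs had ranges over the 8 mice that did not overlap, so most neighbours in the order did not differ beyond their spread. In the plot of WT levels every class holds members at least several-fold apart.

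**Figure D1:**
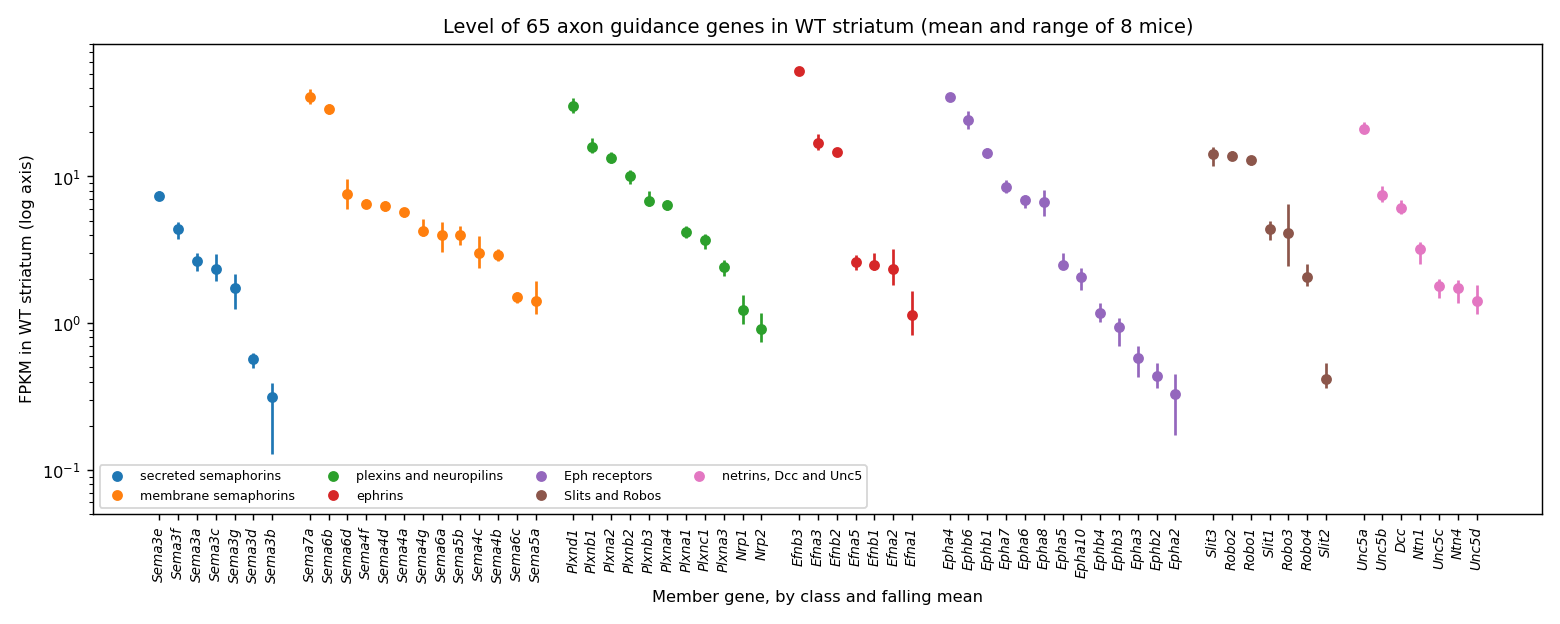
Level of each of the 65 members in WT striatum in FPKM on a log axis, grouped by class and ordered by mean; points are means and lines the range of 8 mice. Efnb3 is highest at 52.6 FPKM and Sema3b lowest at 0.315 FPKM.

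Q140 mice differed from WT in 34 of the 65 members, 13 higher and 21 lower. Ligands and receptors went in both directions: Slit2 and its receptor Robo1 were higher, while Sema7a, Plxnd1, Efnb3 and the endothelial netrin receptor Unc5b were lower. Over all genes tested, 17.0% passed the threshold as higher and 16.0% as lower in the same comparison (adjusted p under 0.05, edgeR's quasi-likelihood test with Benjamini-Hochberg adjustment over all 19714 genes). The median log2 fold change was -0.05 over the members and -0.00 over all genes. Markers of spiny projection neurons fell in the same comparison, and fewer cells of a type and less RNA per cell cannot be told apart in these bulk samples. The split depended on the scaling: scaled by library totals alone, which put the median of all genes at 0.06, 21 members were higher and 15 lower, and 28 of the 34 kept their call and direction. Without the 4 libraries of the other name stem, 26 of the 34 kept their call.

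By role, 7 of 32 ligands were higher and 12 lower, and 6 of 33 receptors were higher and 9 lower. The ephrins were the class with falls alone, 4 of 7, and the netrin group likewise with 3 of 7, whereas the Slits and Robos had 4 higher and 2 lower of 7. The plexins and neuropilins had 2 higher and 5 lower of 11, the membrane semaphorins 4 higher and 5 lower of 13, the Eph receptors 2 higher and 1 lower of 13, and the secreted semaphorins 1 higher and 1 lower of 7. Over all genes tested 17.0% were higher and 16.0% lower. Of the falls in the ephrins and the netrin group, those of Efnb2, Efna1 and Ntn4 did not pass under every setting, as given below. Differences between classes were not tested.

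**Figure D2:**
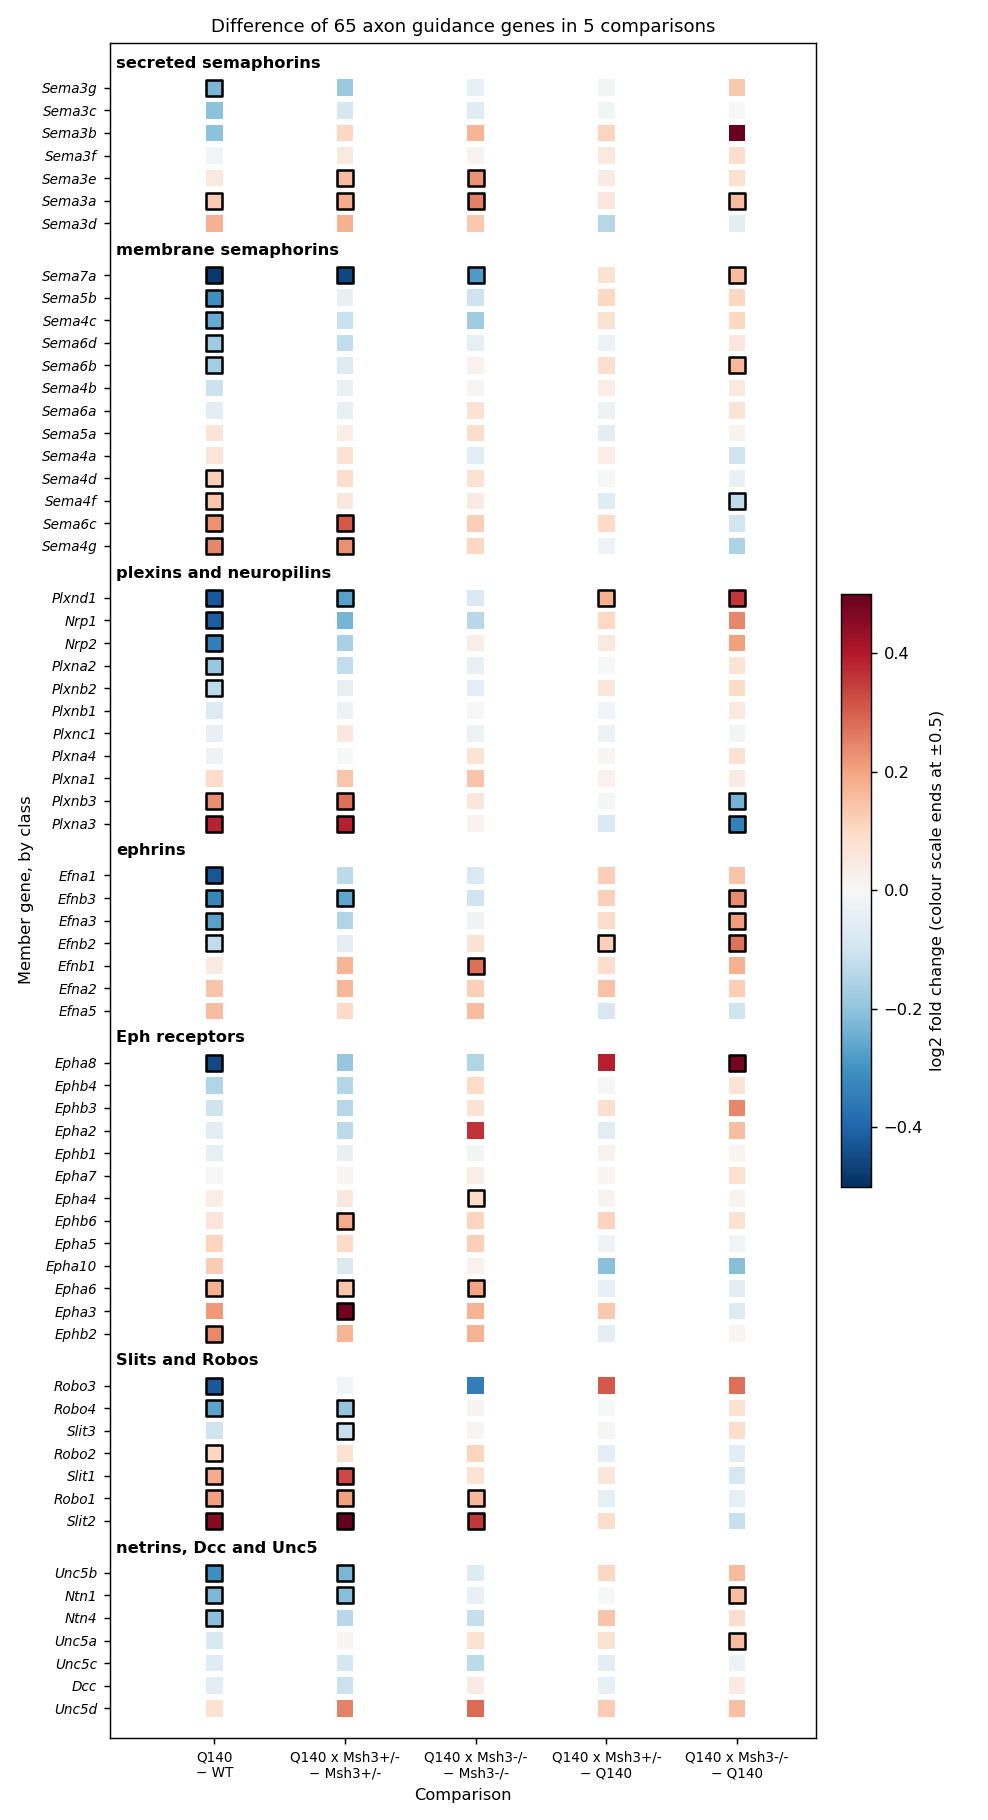
Log2 fold change of each of the 65 members in 5 comparisons (columns), by class and ordered by Q140 minus WT; red is higher, blue lower, the colour scale ends at 0.5 in each direction, and a black frame marks an adjusted p under 0.05. Frames are most frequent in Q140 minus WT (34 members) and least in Q140 x Msh3+/- minus Q140 (2 members).

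Among the secreted semaphorins, Sema3a, which repels cortical and other axons through neuropilin 1, had a lowest, median and highest level of 32.5, 37.9 and 42.8 CPM in WT and of 39, 40.7 and 44.2 CPM in Q140 mice. The 2 ranges overlapped, with the Q140 mice in the upper part. The log2 fold change was 0.13 (SE 0.0492, adjusted p = 0.0347), and without the 4 libraries of the other name stem it was 0.08 (adjusted p = 0.291). Sema3g, a semaphorin made by endothelial cells of arteries, was lower, at 8.08 ± 1.38 CPM (SD, n = 8) in WT and 6.88 ± 0.827 CPM (SD, n = 8) in Q140 mice. Its log2 fold change of -0.23 (SE 0.0837, adjusted p = 0.0286) did not pass with total counts (adjusted p = 0.119) or without the other name stem (adjusted p = 0.185). Sema3e, the ligand of Plxnd1 and the class member with the highest level, did not pass in this comparison: the log2 fold change was 0.05 (SE 0.0421, adjusted p = 0.411), and it passed only with total counts (0.12, adjusted p = 0.0139). Sema3b, Sema3c, Sema3d and Sema3f did not pass, with log2 fold changes from -0.20 to 0.18.

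Among the membrane semaphorins, Sema7a had the largest fall of any member. The gene lies at chr9:57940112-57962865 on the plus strand (GRCm38). Its lowest, median and highest levels were 104, 118 and 132 CPM in WT and 75.8, 85.3 and 95.8 CPM in Q140 mice. Every Q140 mouse lay below every WT mouse. The log2 fold change was -0.48 (SE 0.0554, adjusted p = 9.4e-10). Sema5b and Sema4c fell by less, with log2 fold changes of -0.31 (SE 0.0697, adjusted p = 0.00036) and -0.25 (SE 0.0761, adjusted p = 0.00766). Sema6b (-0.17) and Sema6d (-0.18) also passed as lower, Sema6d neither with total counts (adjusted p = 0.146) nor without the 4 libraries of the other name stem (-0.11, adjusted p = 0.254). In the other direction, Sema4g rose by a log2 fold change of 0.25 (SE 0.062, adjusted p = 0.0014) and Sema6c by 0.22 (SE 0.0655, adjusted p = 0.00576), with Sema6c in all Q140 mice, at 10.1 to 11.9 CPM, above all WT mice, at 8.37 to 9.89 CPM. Sema4f (0.14) and Sema4d (0.12), which signals through Plxnb1, passed as higher too.

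Among the receptors of semaphorins, Plxnd1 (chr6:115954811-115995005, minus strand) was at 203, 224 and 255 CPM (lowest, median and highest) in WT and at 157, 169 and 179 CPM in Q140 mice. The groups did not overlap. The log2 fold change was -0.42 (SE 0.0472, adjusted p = 2.43e-10), the most significant difference of the members. Nrp1, the co-receptor of Sema3a and of vascular endothelial growth factor, fell by a log2 fold change of -0.42 (SE 0.0955, adjusted p = 0.00048). Its relative Nrp2 fell by -0.35 (SE 0.11, adjusted p = 0.0114), which did not pass without the 4 libraries of the other name stem (-0.20, adjusted p = 0.249). Plxna2 and Plxnb2 had log2 fold changes of -0.19 and -0.13 and passed as lower, Plxnb2 not with total counts (-0.07, adjusted p = 0.270). Plxna3 (chrX:74329066-74344689, plus strand), which serves class 3 semaphorins with a neuropilin, went the other way: its lowest, median and highest levels were 16.9, 19.8 and 21.5 CPM in WT and 23.0, 25.7 and 27.5 CPM in Q140 mice. The ranges did not overlap, and the log2 fold change was 0.38 (SE 0.0686, adjusted p = 1.15e-05). Plxnb3, a plexin known from oligodendrocytes, rose by 0.23 (SE 0.0543, adjusted p = 0.000562), and Plxna1, Plxna4, Plxnb1 and Plxnc1 did not pass, with log2 fold changes from -0.06 to 0.10.

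Among the ephrins, Efnb3 (chr11:69554092-69560205, minus strand) was at 162, 171 and 183 CPM (lowest, median and highest) in WT and at 119, 139 and 148 CPM in Q140 mice. Every Q140 mouse was below every WT mouse, and the log2 fold change was -0.33 (SE 0.0462, adjusted p = 7.02e-08). Efna3 fell by a log2 fold change of -0.27 (SE 0.064, adjusted p = 0.00073), although 14.1% of its exonic bases are shared with an annotated gene on the opposite strand and the strand setting of the counting is not given in the sources used here. Efnb2 (chr8:8617434-8661242, minus strand), known from arteries and neurons, fell by -0.13 (SE 0.034, adjusted p = 0.00291), but not with total counts (-0.06, adjusted p = 0.189). Efna1 fell by -0.43 (SE 0.137, adjusted p = 0.0123) from a low level of 2.13 ± 0.561 CPM (SD, n = 8), and without the 4 libraries of the other name stem it was -0.21 (adjusted p = 0.329). Efna2, Efna5 and Efnb1 did not pass, with log2 fold changes from 0.04 to 0.16. Of the 13 Eph receptors, 10 did not pass, among them Epha4 (0.04, adjusted p = 0.398), the one with the highest level, which passed only with total counts (0.10, adjusted p = 0.00121). Epha8 was lower by -0.45 (SE 0.109, adjusted p = 0.00106), from 26.0 to 38.6 CPM in WT to 19.3 to 28.1 CPM in Q140 mice, ranges that overlapped. Epha6 was higher by 0.18 (SE 0.0427, adjusted p = 0.000699), and Ephb2 by 0.24 (SE 0.0898, adjusted p = 0.0341), a call that ended without the sex term (adjusted p = 0.0581) and without the other name stem (adjusted p = 0.086).

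Among the Slits and Robos, Slit2 (chr5:47983138-48307733, plus strand) had lowest, median and highest levels of 9.44, 10.2 and 13.8 CPM in WT and of 12.6, 15.0 and 17.1 CPM in Q140 mice. The ranges overlapped at their ends. The log2 fold change of 0.45 (SE 0.112, adjusted p = 0.00129) was the largest rise of any member past the threshold. Robo1 (chr16:72308306-73046095, plus strand), a receptor of Slit2, was at 91.8, 101 and 107 CPM in WT and at 108, 115 and 127 CPM in Q140 mice, with no overlap. Its log2 fold change was 0.20 (SE 0.0361, adjusted p = 8.63e-06). Slit1 rose by 0.19 (SE 0.0658, adjusted p = 0.0221), which became 0.16 without the other name stem (adjusted p = 0.112), and Robo2 rose by 0.10 (SE 0.0389, adjusted p = 0.0328), with an adjusted p of 0.128 without the other name stem. Robo4, a receptor of endothelial cells, fell by -0.27 (SE 0.0745, adjusted p = 0.00367). Robo3 fell by -0.42 (SE 0.149, adjusted p = 0.0251), but its WT range of 16.9 to 44.3 CPM enclosed the Q140 range of 18.2 to 24.4 CPM, and with total counts the adjusted p was 0.0547. Slit3, the class member with the highest level, did not pass (-0.10, adjusted p = 0.0795).

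In the netrin group, Unc5b, a netrin receptor known from endothelial cells, had lowest, median and highest levels of 39.7, 44.0 and 52.0 CPM in WT and of 32.8, 35.6 and 41.7 CPM in Q140 mice. The ranges overlapped in a narrow band, and the log2 fold change was -0.31 (SE 0.0641, adjusted p = 0.000131). Netrin 1 itself, Ntn1, fell by -0.23 (SE 0.0557, adjusted p = 0.00104) and Ntn4, a netrin of the vascular basement membrane, by -0.21 (SE 0.0692, adjusted p = 0.0149), the latter not with total counts (adjusted p = 0.106). The netrin receptors Dcc, Unc5a, Unc5c and Unc5d did not pass, with log2 fold changes from -0.08 to 0.08.

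Markers of several cell types moved in the same comparison. Of 10 endothelial and mural markers 9 were lower and none higher in Q140 minus WT, and their sum was 343 to 420 CPM in WT and 291 to 318 CPM in Q140 mice, with no overlap. None of these markers was at 0 in all libraries, and their part in the members' differences, among them those of the endothelial receptors Unc5b and Robo4, was not tested. Of the other lists, 11 of 12 spiny projection neuron markers were lower and 1 higher, and their sum fell from 12007 to 13469 CPM in WT to 6795 to 7621 CPM in Q140 mice. Among astrocyte markers 6 of 10 were lower, among microglia markers 6 of 10, among mature oligodendrocyte markers 4 of 10, among interneuron markers 4 of 8, and among oligodendrocyte precursor markers 2 of 6 were lower and 1 higher. Choroid plexus and ependymal markers had 1 higher and 1 lower of 6, and cortical excitatory neuron markers 1 higher of 6. Over all genes tested 16.0% were lower. The sums of the spiny projection neuron, astrocyte, microglia and interneuron markers also did not overlap between WT and Q140 mice. Astrocyte markers summed to 5268 to 5713 CPM in WT and 4538 to 4885 CPM in Q140 mice. For microglia markers the sums were 451 to 539 and 381 to 439 CPM, and for interneuron markers 451 to 490 and 397 to 433 CPM. Sums of the remaining lists overlapped.

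The Q140 allele was also present against the Msh3+/- and Msh3-/- backgrounds, and these 3 Q140 effects share no mice. Against Msh3+/-, 12 members were higher and 7 lower in Q140 x Msh3+/- mice, where 10.8% of all genes were higher and 10.8% lower. With total counts the split was 21 higher and 5 lower. Against Msh3-/-, 7 members were higher and 1 lower in Q140 x Msh3-/- mice, where 4.01% of all genes were higher and 3.84% lower. The median log2 fold change of the members was -0.02 and 0.04 in these 2 comparisons, and 0.01 and -0.00 over all genes. As a description across the 65 genes, which are not independent replicates, the log2 fold changes of Q140 minus WT had a Pearson r of 0.873 with those against Msh3+/- and of 0.712 with those against Msh3-/-. Over all genes tested the values were 0.657 and 0.467. Those genes were not matched to the members in level, so the gap between the values is no result about the members.

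The 13 members that were higher in Q140 minus WT all had a log2 fold change above 0 in the other 2 effects, and 9 passed the threshold against Msh3+/- and 4 against Msh3-/-. The 21 lower members were all below 0 against Msh3+/-, where 6 passed, and 17 of them were below 0 against Msh3-/-, where 1 passed. Of all 3358 genes higher in Q140 minus WT, 94.2% were above 0 against Msh3+/- (48.6% passed) and 89.3% against Msh3-/- (19.5% passed). Of all 3148 lower genes, 95.3% were below 0 against Msh3+/- (55.9% passed) and 86.4% against Msh3-/- (20.6% passed), so that keeping the sign was common to most called genes. Besides these 9, Epha3 (0.49, SE 0.0934, adjusted p = 6.27e-05), Ephb6 (0.19, SE 0.0481, adjusted p = 0.00224) and Sema3e were higher against Msh3+/-. Slit1 (0.33, SE 0.0659, adjusted p = 0.000133) and Sema6c (0.31, SE 0.0654, adjusted p = 0.000272) were among the 9, and all Q140 x Msh3+/- mice were above all Msh3+/- mice for Plxna3 (0.39, SE 0.0689, adjusted p = 1.7e-05) and Plxnb3 (0.28, SE 0.0544, adjusted p = 0.000101). The 7 lower members were Sema7a, Plxnd1 (-0.27, SE 0.0471, adjusted p = 1.27e-05), Efnb3 (-0.27, SE 0.0462, adjusted p = 1.22e-05), Unc5b (-0.23), Ntn1 (-0.21), Robo4 (-0.20) and Slit3 (-0.12). The calls of Robo4 (adjusted p = 0.0486) and Slit3 (adjusted p = 0.0476) were near the threshold and ended with total counts (0.179 and 0.368), without the filter on low counts (0.0705 and 0.0625), without the sex term (0.0650 and 0.0995), without the 4 libraries standing apart (0.0610 and 0.0879) and without those of the other name stem (0.0515 and 0.0514). Against Msh3-/-, the higher members beyond the 4 were Efnb1 (0.28, SE 0.0655, adjusted p = 0.00398), Sema3e and Epha4 (0.10, SE 0.0303, adjusted p = 0.0268), the last not without the 4 libraries standing apart (0.09, adjusted p = 0.0906). Endothelial and mural markers were lower in 8 of 10 against Msh3+/- and in 1 of 10 against Msh3-/-, and none was higher. Spiny projection neuron markers were lower in 11 of 12 and higher in 1 against Msh3+/-, with a median log2 fold change of -0.56, and lower in 10 of 12 and higher in none against Msh3-/-, with a median of -0.30. The part of either list in the members' values was not tested. Passing in one background and not in another is no test of a difference, which is given by the interaction below.

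Slit2, Robo1, Sema3a and Epha6 were higher, and Sema7a was lower, in all 3 Q140 effects. These were 4 and 1 of the 65 members, beside 2.66% and 2.82% of all genes that passed as higher or as lower in all 3. For Robo1, Epha6 and Sema7a no alternative setting run ended any of the 3 calls, whereas Sema3a did not pass in Q140 minus WT without the 4 libraries of the other name stem (adjusted p = 0.291), and Slit2 did not pass against Msh3-/- under several settings given below. Robo1 had lowest, median and highest levels of 88.0, 97.1 and 106 CPM in Msh3+/- and of 105, 114 and 119 CPM in Q140 x Msh3+/- mice, which overlapped by little, and of 92.6, 99.6 and 107 CPM in Msh3-/- and 108, 112 and 122 CPM in Q140 x Msh3-/- mice, which did not overlap. The log2 fold changes of this Slit receptor were 0.21 (SE 0.0361, adjusted p = 1.3e-05) and 0.16 (SE 0.0362, adjusted p = 0.00172). Sema3a rose by 0.19 (SE 0.0492, adjusted p = 0.00369) and 0.25 (SE 0.0492, adjusted p = 0.000433), and all Q140 x Msh3-/- mice, at 42.2 to 53.2 CPM, were above all Msh3-/- mice, at 33.4 to 41.4 CPM. Epha6, an ephrin-A receptor, rose by 0.14 (SE 0.0428, adjusted p = 0.0129) and 0.20 (SE 0.0429, adjusted p = 0.00149). Sema7a fell by -0.45 (SE 0.0554, adjusted p = 8.01e-09) and -0.28 (SE 0.0554, adjusted p = 0.000474), from medians of 122 and 117 CPM without the Q140 allele to 87.8 and 96.0 CPM with it. Its groups did not overlap against Msh3+/- and overlapped against Msh3-/-.

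Slit2 rose by 0.57 (SE 0.112, adjusted p = 0.000138) against Msh3+/- and by 0.35 (SE 0.113, adjusted p = 0.0431) against Msh3-/-. The second call was near the threshold: the log2 fold change was 0.35 to 0.38 in the settings that follow, but the adjusted p was 0.0790 without the filter on low counts, 0.0507 without the sex term, 0.0649 without the 4 libraries standing apart and 0.0555 without those of the other name stem. The lowest, median and highest levels were 8.77, 10.05 and 17.8 CPM in Msh3+/- and 13.5, 16.2 and 18.1 CPM in Q140 x Msh3+/- mice. They were 8.04, 11.6 and 12.6 CPM in Msh3-/- and 9.82, 13.6 and 18.8 CPM in Q140 x Msh3-/- mice. The overlap with Msh3+/- came from 1 mouse, M4, at 17.8 CPM, while the other 7 reached at most 10.9 CPM. In that mouse the sum of the cortical excitatory neuron markers was 84.3 CPM, the highest of its genotype, beside a median of 13.1 CPM. The sum was also high in Q140 x Msh3-/- F2, at 87.3 CPM with Slit2 at 11.9 CPM. In Msh3-/- F2 it was 51.6 CPM with Slit2 at 8.04 CPM. The part of these markers in the Slit2 levels was not tested. In the Q140 x Msh3-/- group the 4 males were at 14.7 to 18.8 CPM and the 4 females at 9.82 to 12.5 CPM, next to 9.29 to 11.8 CPM in male and 8.04 to 12.6 CPM in female Msh3-/- mice. In Q140 and WT mice the means were 14.5 and 11.3 CPM in females and 15.5 and 10.6 CPM in males, higher with Q140 in both sexes. Against Msh3-/-, the ranges of the 2 genotypes did not overlap in the males and overlapped in the females. A test of this difference between the sexes, chosen after the values were seen, gave a female minus male difference of -0.48 (SE 0.211, unadjusted p = 0.0283, adjusted p = 0.9998) on the log2 scale. In it 0 of 65 members and 0% of all genes passed, and 2 members had an unadjusted p under 0.05.

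Slit2 and Sema3a lie on chromosome 5, as does Htt, the gene that carries the Q140 allele. Of the 7 members on that chromosome, 2 were higher in Q140 minus WT and 3 in each of the other 2 Q140 effects, and none was lower. Of all 1398 genes tested on chromosome 5, 14.4%, 10.3% and 4.15% were higher and 14.3%, 9.87% and 4.58% lower in the 3 effects, and 7 genes are too few to set against these shares. The third was Sema3e, at 0.16 (SE 0.0421, adjusted p = 0.00391) against Msh3+/- and 0.22 (SE 0.0422, adjusted p = 0.000251) against Msh3-/-, where its levels of 71.1 to 83.2 CPM in Q140 x Msh3-/- mice all lay above the 60.5 to 69.8 CPM of Msh3-/- mice. Whether position on the chromosome of the knock-in allele bears on these 3 genes was not tested.

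The promoters of 4 members with contrasting patterns are shown, from 250 bases before to 50 bases after the start of the gene, 5′ to 3′ on the strand of the gene, as given by RefSeq on GRCm38.p6. Slit2 (chr5:47982905-47983204, plus strand) was higher and Sema7a (chr9:57939862-57940161, plus strand) lower in all 3 Q140 effects, and Plxnd1 (chr6:115994956-115995255, minus strand) and Plxna3 (chrX:74328816-74329115, plus strand) moved in opposite directions in Q140 mice. Capitals mark matches, on either strand, to the Sp1 motif GGGCGG and, in Slit2, also to the motif of the EGR factors, GCGNGGGCG, where N is any base and the 2 motifs can overlap.
Slit2: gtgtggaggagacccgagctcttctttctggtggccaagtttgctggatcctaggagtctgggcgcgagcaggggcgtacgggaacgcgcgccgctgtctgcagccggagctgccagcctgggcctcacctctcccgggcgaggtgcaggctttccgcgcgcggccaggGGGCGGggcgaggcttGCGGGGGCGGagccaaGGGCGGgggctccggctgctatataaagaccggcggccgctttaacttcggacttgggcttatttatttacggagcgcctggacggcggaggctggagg
Sema7a: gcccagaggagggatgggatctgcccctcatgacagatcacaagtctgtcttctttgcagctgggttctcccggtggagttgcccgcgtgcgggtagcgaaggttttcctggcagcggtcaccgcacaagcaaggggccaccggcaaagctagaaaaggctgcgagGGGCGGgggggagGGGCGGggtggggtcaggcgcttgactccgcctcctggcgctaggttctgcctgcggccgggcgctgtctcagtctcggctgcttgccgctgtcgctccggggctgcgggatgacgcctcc
Plxnd1: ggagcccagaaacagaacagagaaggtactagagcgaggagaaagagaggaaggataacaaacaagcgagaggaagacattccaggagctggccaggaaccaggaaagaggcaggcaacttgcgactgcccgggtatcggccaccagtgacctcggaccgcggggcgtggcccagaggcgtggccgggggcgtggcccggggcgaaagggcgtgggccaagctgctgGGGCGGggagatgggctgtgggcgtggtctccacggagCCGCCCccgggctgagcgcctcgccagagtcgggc
Plxna3: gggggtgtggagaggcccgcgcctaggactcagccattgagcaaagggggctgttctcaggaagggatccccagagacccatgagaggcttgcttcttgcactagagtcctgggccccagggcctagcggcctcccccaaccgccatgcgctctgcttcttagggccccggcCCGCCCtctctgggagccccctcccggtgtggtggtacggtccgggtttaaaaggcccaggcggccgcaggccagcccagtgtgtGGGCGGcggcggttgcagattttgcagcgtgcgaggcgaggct
Each of the 4 held at least 2 Sp1 matches, Slit2 held 3 and 1 EGR match, and none held a match to the CRE motif TGACGTCA or the AP-1 motif TGANTCA, which says only that these letters are not in these windows. RefSeq promoters were matched for 55 of the 65 members, 71 promoters in all. The Sp1 motif was in 51 of the 71, or 71.8%, and in 35.7% of all 32851 promoters of this length, and the EGR motif was in 13, or 18.3%, and in 5.55% of all. The AP-1 motif was in 3 of 71 and in 7.81% of all promoters, and the CRE motif in 1 of 71 and in 1.79% of all. The members' promoters had a median GC content of 64.3% and 20 CpG dinucleotides, and all promoters 52.7% and 7, so the GC-rich motifs were set beside unequal base composition. Genes that rose and genes that fell both carried the Sp1 motif.

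Among mice with the Q140 allele, those labelled Msh3-/- had higher levels of 10 members and lower levels of 3 than those with Msh3 intact (Q140 x Msh3-/- minus Q140). Over all genes 8.75% were higher and 7.57% lower, and the median log2 fold change was 0.07 over the members and 0.00 over all genes. With total counts 7 members were higher and 4 lower. This comparison uses the same Q140 mice as Q140 minus WT, so values of both are set side by side without a count of shared directions.

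Plxnd1, which was -0.42 in Q140 minus WT, was 0.36 (SE 0.0472, adjusted p = 9.58e-08) in Q140 x Msh3-/- minus Q140, with 195, 217 and 240 CPM (lowest, median and highest) in Q140 x Msh3-/- mice against 157, 169 and 179 CPM in Q140 mice. The ranges did not overlap, and those of Q140 x Msh3-/- and Msh3-/- mice, at 207, 225 and 241 CPM, did. Efnb2, an ephrin-B, was 0.27 (SE 0.034, adjusted p = 2.36e-08), with 107, 114 and 118 CPM in Q140 x Msh3-/- and 86.2, 94.0 and 105 CPM in Q140 mice, again with no overlap. Efnb3 was 0.24 (SE 0.0462, adjusted p = 0.000141) and Epha8 0.48 (SE 0.109, adjusted p = 0.00147), the largest difference past the threshold. None of the 13 Eph receptors, Epha8 among them, passed in the Msh3-/- interaction given below. The other higher members were Efna3 (0.21), Sema6b (0.16), Sema7a (0.16), Ntn1 (0.16), Unc5a (0.15) and Sema3a (0.15). Of these, Sema7a (adjusted p = 0.101), Ntn1 (0.124) and Sema3a (0.0832) did not pass with total counts, Sema7a (0.225), Ntn1 (0.0862) and Efna3 (0.0698) without the libraries of the other name stem, Sema7a (0.0865) and Ntn1 (0.0660) without the filter on low counts, and Sema7a (0.0638) without the sex term. The 3 lower members were Plxna3, Plxnb3 and Sema4f. Plxna3 was -0.34 (SE 0.0685, adjusted p = 0.000227) and Plxnb3 -0.24 (SE 0.0543, adjusted p = 0.00123), and Sema4f was -0.13 (SE 0.0459, adjusted p = 0.0435), a call that ended without the 4 libraries standing apart (adjusted p = 0.0517) and without the filter on low counts (adjusted p = 0.0728). In this comparison too, 11 of 12 spiny projection neuron markers and 2 of 10 endothelial and mural markers were higher and none of either list lower, and the part of the markers was not tested.

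Q140 mice labelled Msh3+/- had 2 higher members and 0 lower than Q140 mice, Plxnd1 at 0.18 (SE 0.0472, adjusted p = 0.0414) and Efnb2 at 0.12 (SE 0.034, adjusted p = 0.0459), beside 0.842% of all genes higher and 0.477% lower. Q140 x Msh3+/- mice had 168, 189 and 211 CPM of Plxnd1, between the medians of 169 CPM in Q140 and 217 CPM in Q140 x Msh3-/- mice, with ranges that overlapped both. Neither call held without the 4 libraries standing apart (adjusted p = 0.0598 for Plxnd1 and 0.0834 for Efnb2) or without the filter on low counts (0.0771 and 0.0786). Efnb2 also did not pass without the sex term (adjusted p = 0.0511), nor Plxnd1 without the libraries of the other name stem (adjusted p = 0.102). In this comparison 8 of 12 spiny projection neuron markers were higher and none lower, with a median log2 fold change of 0.19, and none of the 10 endothelial and mural markers passed. The part of these markers in the members' differences was not tested.

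**Figure D3:**
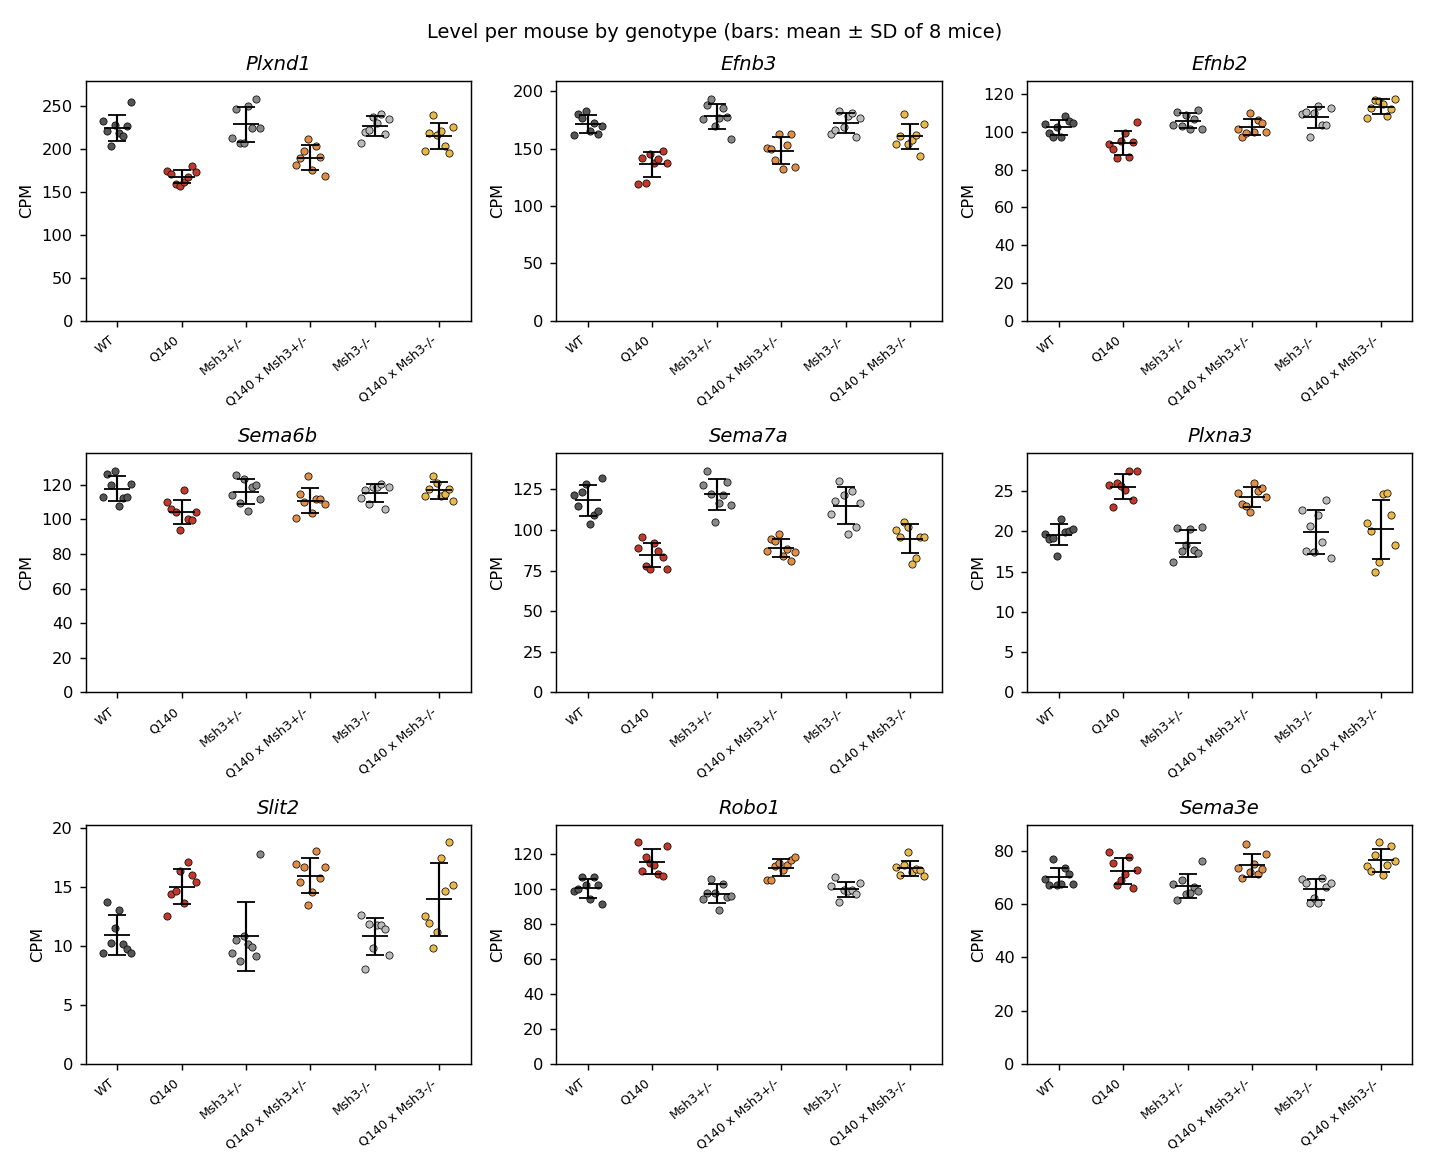
Level in CPM (TMM-scaled) of 9 members in each of the 48 mice by genotype, each axis starting at 0; points are mice and bars the mean and SD of 8. Plxnd1 falls from a mean of 225 CPM in WT to 168 CPM in Q140 and is at 214 CPM in Q140 x Msh3-/- mice, while Robo1 is at 116, 112 and 112 CPM in the 3 Q140 genotypes and at 97.4 to 101 CPM in the others.

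Whether the Q140 effect differed with the Msh3 genotype was tested by the interaction. For Msh3-/-, 4 members were higher and 1 lower, beside 4.09% and 2.06% of all genes. In the same test 11 of 12 spiny projection neuron markers were higher (median 0.46) and 2 of 10 endothelial and mural markers (median 0.21), with none of either list lower, and their part in the members' interactions was not tested. Plxnd1 had the largest positive interaction of the members past the threshold, 0.35 (SE 0.0666, adjusted p = 0.000335). Its Q140 effect was -0.42 with Msh3 intact and -0.08 (SE 0.0471, adjusted p = 0.374) in Msh3-/- mice. Efnb2 had 0.20 (SE 0.0481, adjusted p = 0.00533), from -0.13 to 0.07. Efnb3 had 0.23 (SE 0.0653, adjusted p = 0.0223), from -0.33 to -0.10, and Sema6b had 0.19 (SE 0.0564, adjusted p = 0.0286), from -0.17 to 0.02. Plxna3 had -0.37 (SE 0.0975, adjusted p = 0.0122), from 0.38 to 0.01: the Q140 x Msh3-/- mice spanned 15.0 to 24.8 CPM and the Msh3-/- mice 16.7 to 23.9 CPM, ranges that overlapped nearly in full. With total counts Efnb3 (adjusted p = 0.0866) and Sema6b (adjusted p = 0.116) did not pass, and without the 4 libraries of the other name stem Plxna3 (adjusted p = 0.0725), Efnb3 (adjusted p = 0.0591) and Sema6b (adjusted p = 0.168) did not. Of the genes in all 3 Q140 effects, none passed in the interaction: the values were -0.10 for Slit2 (adjusted p = 0.807), -0.04 for Robo1 (adjusted p = 0.752), 0.12 for Sema3a (adjusted p = 0.362), 0.02 for Epha6 (adjusted p = 0.914) and 0.20 for Sema7a (adjusted p = 0.132). The genes in all 3 effects had been picked for passing in the same direction in both effects that the interaction compares. That made an interaction call less likely beforehand, so equal effects are not shown. Sema3e, the ligand of Plxnd1, had 0.17 (adjusted p = 0.0685).

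**Figure D4:**
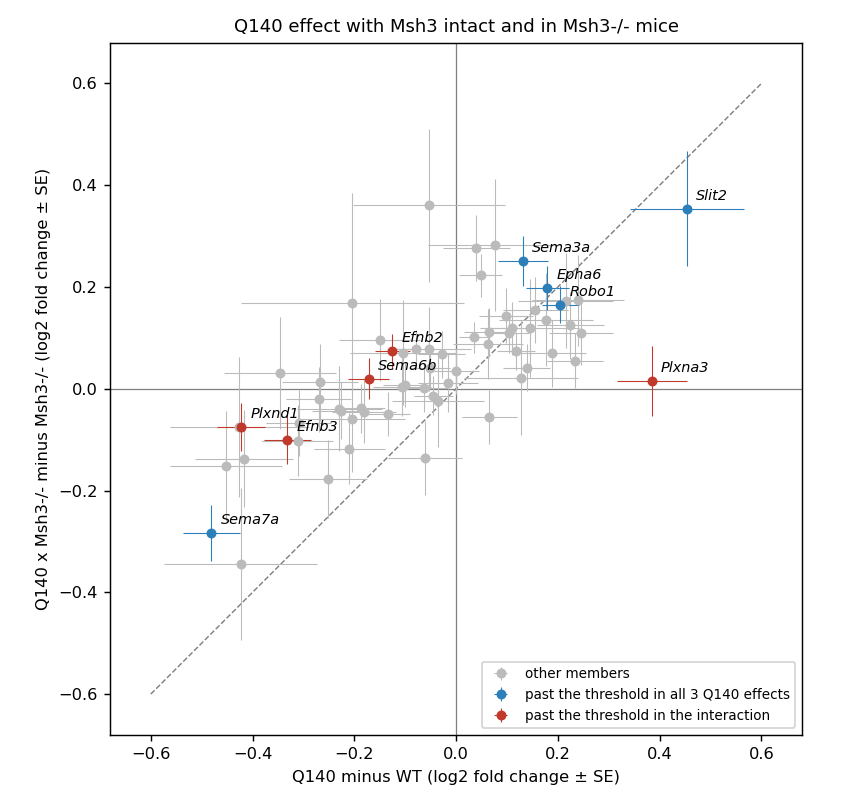
Q140 effect on each of the 65 members with Msh3 intact (horizontal axis, Q140 minus WT) and in Msh3-/- mice (vertical axis), as log2 fold changes with standard errors; the dashed line marks equal effects. The 5 members past the interaction threshold are in red, with Plxnd1 at -0.42 and -0.08, and the 5 members past the threshold in all 3 Q140 effects are in blue, with Slit2 at 0.45 and 0.35; the calls of Slit2 and Sema3a in all 3 do not hold under every alternative setting.

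For Msh3+/-, 0 of 65 members passed the interaction, beside 0.0152% of all genes; 3 members had an unadjusted p under 0.05. Without the Q140 allele, 0 members differed between Msh3+/- and WT mice (0.0101% of all genes; 1 member with an unadjusted p under 0.05) and 0 between Msh3-/- and WT mice (0.0457% of all genes; 4 members). The female minus male difference of Q140 minus WT passed for 0 members and for 0% of all genes, with 2 members at an unadjusted p under 0.05. DESeq2's Wald test gave 0 members in each of these 4 comparisons too.

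The genes that work with these ligands and receptors changed in both directions as well. Of 57 cytoplasmic effectors of guidance receptors, 18 were higher and 14 lower in Q140 minus WT, with a median log2 fold change of 0.02. Over all genes 17.0% were higher and 16.0% lower. Among the higher ones were Dpysl3 (0.44, adjusted p = 3.94e-09) and Dpysl5 (0.29, adjusted p = 1.16e-09), collapsin response mediators downstream of semaphorins. Vav3 was higher too (0.43, adjusted p = 6.72e-09). Among the lower ones were Chn1 (-0.50, adjusted p = 1.15e-17), the Rac-inactivating chimaerin downstream of Epha4, Ngef (-0.40, adjusted p = 1.27e-10), an exchange factor bound to Epha4, and Farp2 (-0.40, adjusted p = 3.21e-07), which acts downstream of plexin A. Gsk3b, a kinase that phosphorylates the collapsin response mediators, was also lower (-0.43, adjusted p = 6.76e-15). Of 33 cofactors and other guidance cues, 7 were higher and 11 lower, with a median of -0.05. Chl1, a cell adhesion protein that binds neuropilin 1, rose (0.32, adjusted p = 6.01e-08), and Bmp7 (-0.52, adjusted p = 8.39e-06), Ntng2 (-0.35, adjusted p = 0.0011) and the chemokine Cxcl12 (-0.31, adjusted p = 0.000581) fell. In Q140 x Msh3-/- minus Q140, 9 of the 57 effectors were higher and 5 lower, and 6 of the 33 cofactors were higher and 1 lower. Over all genes 8.75% were higher and 7.57% lower in that comparison. The genes named here were picked by hand after their values were seen, and not by size alone.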

How the data were processed

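Striatal RNA of 48 mice was sequenced from stranded TruSeq libraries, per the labels' protocols. The authors deposited raw counts per gene and FPKM values. STAR 2.7.5c, SAMtools 1.10 and HTSeq 0.12.3, and the builds GRCm38 and mm10, are named in the submitters' processing notes; the strand setting of the counting is not given in the sources used here. For the members, deposited FPKM equalled count times a constant divided by the library total (largest relative deviation 2.4e-09), so they add no second measurement and served only to compare levels between genes.

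Counts were fitted with edgeR 4.0.16 (R 4.3.3): filterByExpr by genotype (minimum count 10; 19714 genes tested, 29081 left out), TMM scaling, and the robust quasi-likelihood F-test in 1 fit of all 48 libraries by genotype and sex (41 residual degrees of freedom; 36 for terms of each genotype and sex). The Benjamini-Hochberg adjustment covered the whole table of genes tested, and the threshold was 0.05. Levels are TMM-scaled CPM. Each standard error is the log2 fold change divided by the square root of F. The test was tried on simulated counts. Alternatives were DESeq2 1.42.0, its size factors in edgeR, total counts, no filter, no sex term, a replicate block, only libraries of the main name stem and, added after seeing the data, leaving out the 4 libraries that stood apart.

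Named genes were, in each class, up to 3 of the largest rises and falls in Q140 minus WT and the gene with the highest FPKM, with all interaction calls and up to 3 in each direction per Q140 cross minus Q140; 33 members met this rule. Other members were named to complete a class or a set of calls. The members and lists were chosen with earlier results of these data known. Groups, sexes and replicate numbers came from the sample titles. Gene positions were taken from GENCODE M21 (GRCm38), and promoters from RefSeq.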

Additional observations from a re-analysis of the deposited data

Results flagged for a closer look

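Among 198 groups of 8 mice (33 members in 6 genotypes), 12 held a mouse far from the other 7, and chance flags about 1 in 20 such groups. In Msh3+/- mice, male M4 was the highest for Slit2 (17.8 CPM), Nrp2 (15.6 CPM) and Epha4 (301 CPM). Its cortical excitatory neuron markers summed to 84.3 CPM, and their part in these levels was not tested. Female F4 of the same genotype was the highest for Robo4 (10.7 CPM). In Q140 mice, F2 was the highest for Nrp1 (12.2 CPM), M2 the highest for Nrp2 (11.8 CPM) and M3 the lowest for Slit3 (77.5 CPM). In Q140 x Msh3+/- mice, M4 was the highest for Nrp2 (12.7 CPM) and F2 for Sema4f (41.8 CPM). In WT mice F2 was the highest for Plxnb3 (52.1 CPM), in Msh3-/- mice M2 for Ntn1 (22.4 CPM), and in Q140 x Msh3-/- mice F4 for Robo1 (122 CPM).

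The Q140 effect differed between mice labelled Msh3-/- and mice with Msh3 intact in 5 members, by the test of the interaction. The log2 difference was 0.35 for Plxnd1, 0.20 for Efnb2, 0.23 for Efnb3, 0.19 for Sema6b and -0.37 for Plxna3. Over all genes 4.09% were higher and 2.06% lower in the same test. Efnb3 and Sema6b did not pass with total counts, and Plxna3, Efnb3 and Sema6b not without the libraries of the other name stem.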

How the results depend on the processing

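Of 44 results on named members, all 44 kept their direction and their side of the threshold with DESeq2 and with DESeq2's size factors in edgeR, 41 without the filter on low counts, 42 without the sex term, 43 with the replicate block, 41 without the 4 libraries that stood apart, 37 with total counts (5 no longer passed and 2 newly passed) and 34 with only libraries of the main name stem, a setting with fewer WT and Q140 samples; no direction reversed. The 2 members that passed in Q140 x Msh3+/- minus Q140 became 0 without the filter, 0 without the 4 libraries, 1 without the sex term and 1 with the main name stem only. The 5 members of the Msh3-/- interaction became 3 with total counts and 2 with the main name stem only. The cause of these changes was not tested. Replicate numbers did not pair the mice: the correlation of same-numbered mice after removing group means ran from -0.236 to 0.395 with a median of 0.000853 over 120 pairs. In the column names, the number after the stem is shared by some mice of different genotypes. The labels do not say what that number stands for, and its part in the values was not tested. With the replicate block, 34 members passed in Q140 minus WT and 1 in Q140 x Msh3+/- minus Q140, where Plxnd1 did not pass (adjusted p = 0.0604); Robo4 (0.0514) and Slit3 (0.0548) against Msh3+/-, Slit2 (0.0687) against Msh3-/- and Sema7a (0.0540) in Q140 x Msh3-/- minus Q140 did not pass with it either. Depth limits the low members, such as Sema3b with as few as 27 counts in a library.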
